A study of Mus musculus with 5 samples.

Results

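The genes described here are 10 genes of alveolar type 1 (AT1) differentiation: Ager, Hopx, Rtkn2, Aqp5, Pdpn, Akap5, Clic5, Gprc5a, Ndnf and Krt7. They were chosen by symbol from the 32285 genes of each count matrix, and each symbol matched 1 row. AT1 cells are the thin, flat epithelial cells across which gas exchange takes place. Alveolar type 2 (AT2) cells, the other epithelial type of the alveolus, make surfactant and can give rise to AT1 cells. Before birth, both types arise from distal epithelial progenitors of the lung, and the choice of the AT1 fate depends on NKX2-1 and on the YAP and TAZ coactivators with their TEAD partners.

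Single-cell RNA sequencing counted transcripts in cells of whole mouse lungs, dissociated at E18.5, shortly before birth. The Het group held 2 libraries from Zswim8+/– embryos and the KO group held 3 libraries from Zswim8–/– embryos. ZSWIM8 is the substrate receptor of a ubiquitin ligase that removes Argonaute proteins bound to certain target RNAs, which leads to decay of the microRNA they carry. All embryos therefore carried at least 1 mutant allele, no wild-type lung was among the libraries, and the labels do not say in which cells the gene was inactivated or which part of it was removed.

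The libraries held 56608582 to 93708304 unique molecular identifiers (UMIs, each counting 1 captured RNA molecule), and 3051 to 4634 cells per library were kept. Pairs of libraries shared 17 to 44 cell barcodes, at most 0.325% of a library. Reads of Zswim8 stood at 36.5 and 38.4 CPM (a gene's UMIs scaled to a common total of UMIs) in the Het libraries and at 37.9, 39.4 and 41.0 CPM in the KO libraries. The kit reads the 3′ end of a transcript and the removed part is not given in the sources used here, so this level checks nothing about the labels. Xist and Y-linked counts put KO1 and KO2 with females and Het1, Het2 and KO3 with males, so that sex differed between the groups. Each library came from the lungs of 1 embryo, per the labels' protocol. Cells were named by clustering without the 10 genes and from markers that left them out. A class is called "-like" because the names were rebuilt here.

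Of the epithelial cells, 655 were AT1-like, with 195 and 184 in the Het libraries and 76, 77 and 123 in the KO libraries. The class joined epithelial cluster 2, led by Cdkn2b, Msln and Col4a3 beside the members Rtkn2 and Aqp5, and epithelial cluster 7, led by Hbegf, Cryab and Atf3 beside the members Clic5 and Hopx. Cluster 2 made up 66.2% and 56.5% of AT1-like cells in the Het libraries and 34.2%, 40.3% and 45.5% in the KO libraries, so different clusters held most of the class in each group. Of the 12 AT1 markers used for naming, 11 were detected in every library and Cyp2b10 was at 0 in all 5. The 533 AT2-like cells joined epithelial cluster 4, led by Retnla, Lyz1 and S100g, and cluster 5, led by Epha7, Acss3 and Inpp4b. Cluster 4 held 71.0% and 72.3% of AT2-like cells in the Het libraries but 11.9%, 15.2% and 31.9% in the KO libraries.

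In GENCODE M21 (GRCm38), Ager lies at chr17:34597862-34600936 (+), Clic5 at chr17:44188584-44280172 (+), Aqp5 at chr15:99590782-99594829 (+) and Krt7 at chr15:101411043-101430313 (+). Gprc5a lies at chr6:135065651-135084709 (+), Ndnf at chr6:65671590-65712326 (+), Rtkn2 at chr10:67979570-68059740 (+) and Akap5 at chr12:76324891-76334153 (+). Pdpn lies at chr4:143267431-143299564 (-) and Hopx at chr5:77086988-77115121 (-).

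Start-site windows of 7 of the 10 genes, from 250 bases before to 50 bases after the start, were found in RefSeq (GRCm38.p6), with a pair of starts for Hopx. They are shown because members moved together in the alveolar classes described further on. The TEAD-type motif GGAATG, searched on both strands, was in 0 of the 8 windows and in 14.7% of all 32851 windows. The NKX2-type motif TNAAGTG was in 1 of the 8, a Hopx window, and in 11.5% of all windows. The E-box CACGTG, which reads the same on both strands and was chosen after the windows had been read, was in 3 of the 8 and in 7.15% of all windows. Each stretch printed here lies upstream of the RefSeq start of its window, 5′ to 3′ on the strand of the gene, with the E-box in capitals. The Aqp5 stretch is at chr15:99590914-99590973 (+), that of Pdpn at chr4:143299676-143299735 (-) and that of Hopx at chr5:77095321-77095380 (-).

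Aqp5: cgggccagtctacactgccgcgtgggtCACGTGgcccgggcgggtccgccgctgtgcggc

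Pdpn: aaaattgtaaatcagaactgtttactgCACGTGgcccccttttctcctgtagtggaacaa

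Hopx: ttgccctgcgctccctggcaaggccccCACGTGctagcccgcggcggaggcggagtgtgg

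The E-box begins 87 bases before the RefSeq start of Aqp5, 144 before that of Pdpn and 86 before the inner one of Hopx. The stretches of Aqp5 and Hopx lie inside the wider GENCODE gene spans given above, which begin further upstream. These matches describe letters in the windows only, and no binding data were among the files.

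All 10 genes had their highest class mean in AT1-like cells. Ager, which encodes the receptor for advanced glycation end products and marks the basal membrane of AT1 cells, averaged 4647 ± 1441 CPM (SD, n = 5 libraries) in AT1-like cells. Its mean was 491 ± 89.6 CPM in AT2-like cells and 194 ± 76.7 CPM in club-like airway cells, and the library values of these 3 classes did not overlap. Hopx, a homeodomain protein without DNA binding of its own, averaged 2171 ± 303 CPM in AT1-like cells. Its next classes were cycling epithelial-like at 946 ± 134 CPM, club-like at 277 ± 92.8 CPM and ciliated-like at 213 ± 14.4 CPM, and the last pair overlapped. CPM are shares of a cell class's UMIs and are compared here between classes for each gene.

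**Figure D1:**
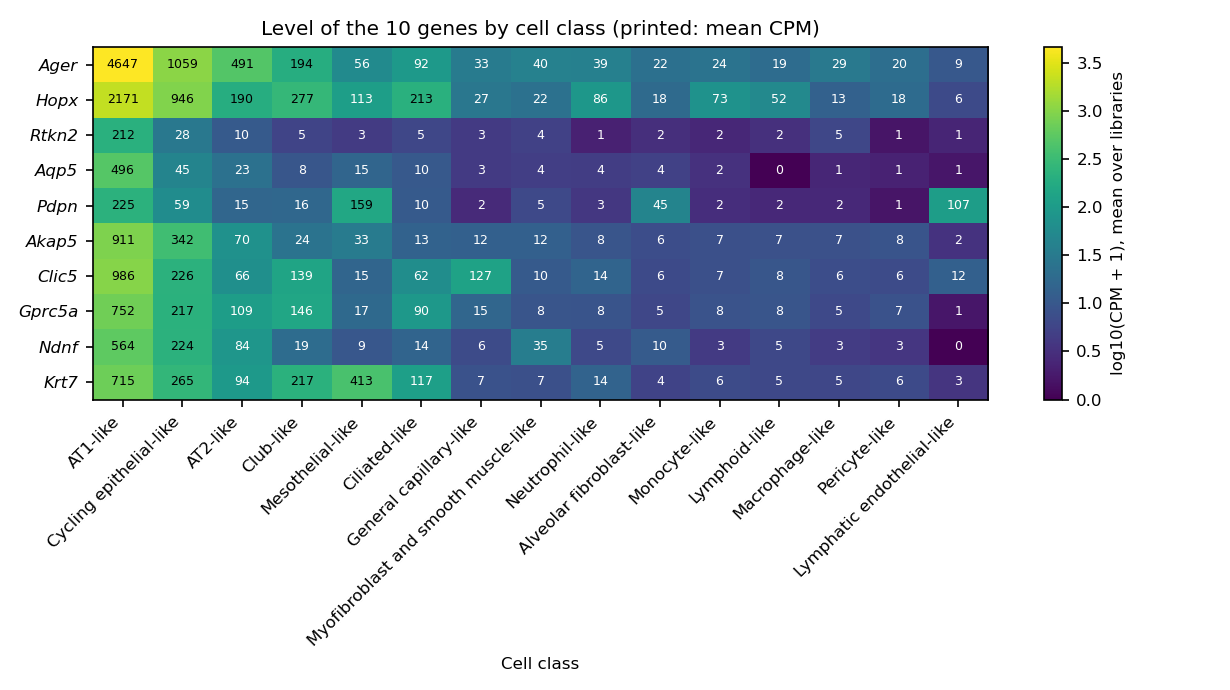
Mean level of each gene (rows) in each named cell class (columns), in CPM averaged over the libraries with at least 20 cells of the class; the colour gives log10(CPM + 1). Every gene is highest in AT1-like cells, while Krt7 (413 CPM) and Pdpn (159 CPM) are also high in mesothelial-like cells.

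The genes differed in how far their expression reached beyond the AT1-like class. Aqp5, a water channel of the apical membrane, averaged 496 ± 214 CPM in AT1-like cells against 22.5 ± 17.2 CPM in AT2-like cells. Rtkn2, used as an early AT1 marker, averaged 212 ± 131 CPM against 10.1 ± 6.02 CPM. These levels were the lowest outside the AT1-like class relative to the level in it. Akap5, a scaffold that anchors protein kinase A, averaged 911 ± 230 CPM in AT1-like and 69.8 ± 41.2 CPM in AT2-like cells. Ndnf, a secreted factor with fibronectin type III repeats, averaged 564 ± 136 CPM in AT1-like and 83.8 ± 30.1 CPM in AT2-like cells.

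Other members were shared with further cell types. Pdpn, the membrane mucin podoplanin, reached 159 ± 16.1 CPM in mesothelial-like cells, within the AT1-like library range around a mean of 225 ± 103 CPM. Both Het AT1-like values lay well above this mesothelial-like mean, and the KO values lay on either side of it. Pdpn also reached 107 ± 31.6 CPM in lymphatic endothelial-like cells (3 libraries) and 44.8 CPM in alveolar fibroblast-like cells. Krt7, a keratin of simple epithelia, averaged 715 ± 183 CPM in AT1-like, 413 ± 63.2 CPM in mesothelial-like and 217 ± 22.5 CPM in club-like cells. Clic5, a chloride intracellular channel protein linked to actin, averaged 986 ± 212 CPM in AT1-like, 139 ± 34.8 CPM in club-like and 127 ± 65.5 CPM in general capillary-like cells, and its club-like and capillary values overlapped. Gprc5a, an orphan receptor induced by retinoic acid, averaged 752 ± 172 CPM in AT1-like, 146 ± 25.5 CPM in club-like and 109 ± 28.7 CPM in AT2-like cells, where the last pair overlapped.

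The cycling epithelial-like cluster had enough cells only in KO2 and KO3, where Ager stood at 1067 and 1050 CPM and Rtkn2 at a mean of 28.0 ± 4.99 CPM (n = 2). It held 0 and 3 cells in the Het libraries and 11, 32 and 34 in the KO libraries. Free RNA was gauged in barcodes of red blood cells, which should lack these genes. They carried 0.0904 to 0.205 Ager UMIs each, against 6.05 to 11.5 per AT2-like cell and 31.1 to 68.5 per AT1-like cell. As a share of the UMIs of these barcodes that were not haemoglobin, Ager stood at 411 and 379 CPM in the Het libraries, against 394 and 401 CPM unscaled in AT2-like cells. In the KO libraries it stood at 247, 204 and 330 CPM, against 557, 513 and 589 CPM. Ager in club-like cells lay below these red blood cell barcode levels in every library but KO1. For Hopx, Rtkn2, Aqp5, Pdpn, Akap5, Clic5 and Krt7 both Het AT2-like values lay below those of the red blood cell barcodes of the same library. In KO1 the same held for Hopx, Rtkn2, Akap5, Clic5 and Krt7. It also held for Rtkn2 and Aqp5 in KO2, and for Pdpn in KO2 and KO3.

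Over the means of 14 cell classes, the genes whose log2(CPM + 1) pattern was most like that of Ager were S100a14 (Pearson r = 0.98), Cdkn2b (0.97) and Cldn18 (0.97). Those most like Rtkn2 were Prkag3, Platr22 and Dlk2 (r = 0.95 to 0.97), and those most like Krt7 were Mpzl2, Krt19 and Msln (r = 0.98). Aqp5 was nearest to the member Akap5 (0.96), and Hopx to the member Gprc5a (0.93). Pdpn was nearest to Sema3a (0.95), Akap5 to Wdr45 (0.97), Clic5 to Slc12a5 (0.92), Gprc5a to S100a14 (0.97) and Ndnf to Tulp1 (0.93). The class means share libraries, so these values are descriptions.

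Within AT1-like cells, 7 of the 10 genes were lower in KO than in Het lungs, and none was higher. Over all genes tested in these sums, 235 of 9326 (2.52%) were lower and 173 (1.86%) higher at an adjusted p under 0.05. The median log2 fold change of the 10 genes was -0.62, against 0.01 over all genes. All 10 had lower values in each KO library than in each Het library, a pattern seen in 16.4% of all genes tested. The 10 genes and the gene lists used further on were chosen with earlier results of these data known. Counts set beside shares of all genes are therefore descriptions, here and in the other sums. The test was edgeR's quasi-likelihood test on the UMI sums of each library with Benjamini-Hochberg adjustment, and values in these comparisons are CPM scaled by TMM. Its fit had 16.2 prior against 3 residual degrees of freedom in AT1-like sums, and 17.5 against 3 in AT2-like sums. The p values of both therefore rest largely on the spread shared by all genes.

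Rtkn2 changed most. Its Het values were 394 and 319 CPM, and its KO values 130, 87.8 and 140 CPM. The groups did not overlap, and the fold change was 2.99-fold lower in KO (log2 -1.58, SE 0.17, adjusted p = 1.13e-05 by edgeR). Pdpn stood at 343 and 334 CPM in the Het libraries and at 154, 119 and 184 CPM in the KO libraries. Its KO values lay below both Het values, and its log2 fold change was -1.14 (SE 0.16, edgeR adjusted p = 0.000208). Aqp5 stood at 710 and 756 CPM in the Het libraries and at 310, 332 and 391 CPM in the KO libraries. It was 2.11-fold lower (log2 -1.08, SE 0.13, edgeR adjusted p = 6.15e-05), with each KO value below the lower Het value.

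The abundant members fell by less. Ager stood at 6289 and 6217 CPM in the Het libraries and at 4034, 3080 and 3831 CPM in the KO libraries. That was 1.71-fold lower (log2 -0.78, SE 0.12, edgeR adjusted p = 0.000573). Counted as UMIs per cell, Ager was at 57.5 and 68.5 in the Het libraries and at 31.1, 51.0 and 61.9 in the KO libraries, which overlap. The median depth of AT1-like cells was 8301 and 9219 UMIs in the Het libraries and 7283, 10879 and 11265 in the KO libraries, so the per-cell counts also moved with depth.

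Akap5 stood at 1181 and 1170 CPM in the Het libraries and at 754, 732 and 757 CPM in the KO libraries. Its values were tight within each group and its log2 fold change was -0.65 (SE 0.12, edgeR adjusted p = 0.00226). Krt7 stood at 845 and 958 CPM in the Het libraries and at 520, 620 and 653 CPM in the KO libraries (log2 -0.59, SE 0.13, edgeR adjusted p = 0.0124). Clic5 stood at 1246 and 1187 CPM in the Het libraries and at 957, 712 and 877 CPM in the KO libraries (log2 -0.52, SE 0.13, edgeR adjusted p = 0.0289). Both groups were apart in Krt7 and in Clic5 by less than in the other called genes.

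The remaining 3 members did not pass the threshold. Ndnf stood at 729 and 671 CPM in the Het libraries and at 623, 420 and 411 CPM in the KO libraries (log2 -0.55, SE 0.16, edgeR adjusted p = 0.0508). Gprc5a stood at 912 and 907 CPM in the Het libraries and at 827, 490 and 664 CPM in the KO libraries (log2 -0.47, SE 0.16, edgeR adjusted p = 0.110). Hopx stood at 2257 and 2623 CPM in the Het libraries and at 1981, 1954 and 2115 CPM in the KO libraries (log2 -0.27, SE 0.12, edgeR adjusted p = 0.234). Reads of Hopxos, on the other strand of Hopx, came to 396 UMIs over the kept cells of all 5 libraries.

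**Figure D2:**
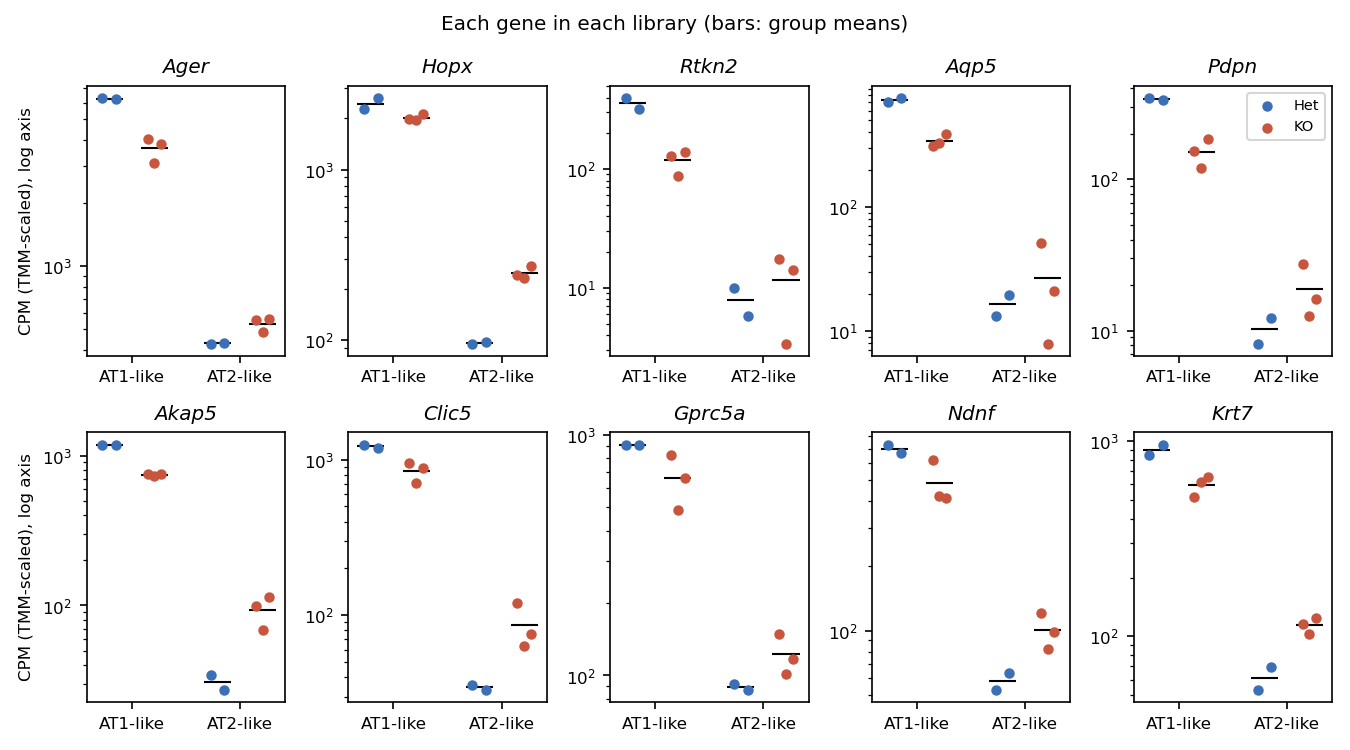
CPM (TMM-scaled, log axis) of each gene in the sums of AT1-like and AT2-like cells; each point is a library (Het blue, KO red) and bars are group means. In AT1-like cells every KO point lies below every Het point for all 10 genes, while in AT2-like cells the KO points lie above the Het points for 8 of the 10.

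Sex, clusters and single libraries bear on these counts. With sex as a covariate, 3 of the 7 calls remained: Rtkn2 (log2 -1.34, edgeR adjusted p = 0.00591), Aqp5 (-0.91, 0.0229) and Pdpn (-0.88, 0.0461), while Ager was at -0.71 (0.0857). KO3, the male KO library, had the highest KO value of Rtkn2, Aqp5 and Pdpn, and each lay below both Het values. Without Het1 or without Het2, 4 of the members were called, and 4 were called in cluster 2 alone or at a finer clustering (resolution 2), against 8 in cluster 7 alone. At resolution 2, Rtkn2 was at -1.05, Pdpn at -0.78, Aqp5 at -0.54 and Ager at -0.46 on the log2 scale and passed, while Krt7 was at -0.39, Akap5 at -0.19 and Clic5 at -0.11 and did not. In cluster 2 alone Akap5 was at -0.43 and Clic5 at -0.39, also uncalled. In cluster 2, Rtkn2 stood unscaled at 451 and 453 CPM in the Het libraries and at 188, 143 and 170 CPM in the KO libraries. In cluster 7 it stood at 310 and 249 CPM in the Het libraries and at 102, 73.7 and 138 CPM in the KO libraries, so the difference was present within each cluster.

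AT2 markers moved with this fall. The summed level of the 11 AT2 naming markers in AT1-like cells was 4182 and 4956 CPM in the Het libraries and 10750 to 13239 CPM in the KO libraries, with none of the 11 at 0. Cells that also carried at least 3 markers of another lineage (mixed cells) made up 2.6% to 5.7% of the class and held 11.3% and 11.9% of its Ager UMIs in KO2 and KO3, against 3.7% to 6.0% in the others. With mixed cells left out, 8 members were called lower. The part of AT2 RNA in the fall was not tested.

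In cells thinned to 2000 UMIs each, the same genes were found in fewer AT1-like KO cells. A UMI of Rtkn2 was found in 54.7% and 41.0% of Het cells and in 16.9%, 15.6% and 24.6% of KO cells. For Pdpn these shares were 52.6% and 47.4% against 21.1%, 24.7% and 31.1%, and for Aqp5 they were 73.2% and 67.1% against 35.2%, 35.1% and 50.8%. Ager was found in 98.6% to 100% of cells in every library. An AT1-like cell carried on average 7.59 and 7.57 of the 10 genes in the Het libraries and 6.04, 5.94 and 6.62 in the KO libraries. The thinning left out 5 and 11 AT1-like cells in the Het libraries and 5, 0 and 1 in the KO libraries. In monocyte-like cells, which should lack these genes and had median depths of 8124 to 9369 UMIs, Rtkn2 was found in 0% to 0.917% of cells, Pdpn in 0% to 0.872% and Aqp5 in 0.277% to 1.83%.

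**Figure D3:**
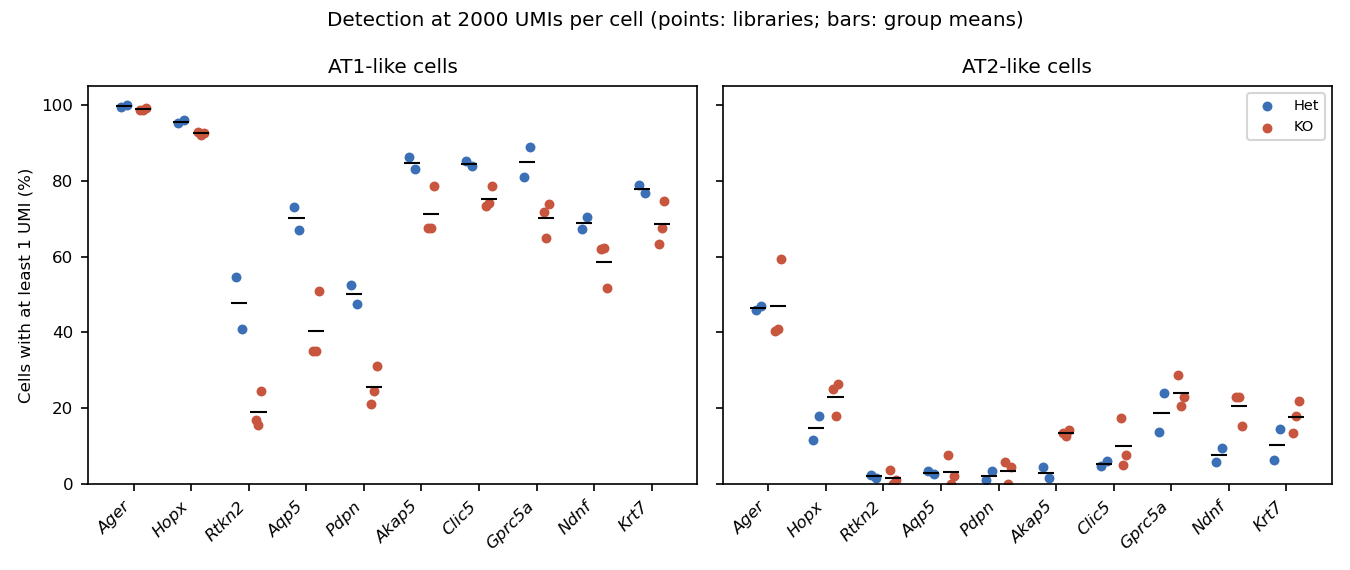
Share of AT1-like (left) and AT2-like (right) cells with at least 1 UMI of each gene after thinning every cell to 2000 UMIs; points are libraries and bars group means. Rtkn2, Pdpn and Aqp5 show the widest gap between Het and KO libraries in AT1-like cells, and Ager stays at 98.6% or above.

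In AT2-like cells the difference ran the other way. Of the 10 genes, 5 were higher in KO and none lower, against 3.69% of the 9486 genes tested that were higher and 4.75% that were lower. The median log2 fold change of the 10 was 0.83, against 0.02 over all genes. For 8 of them each KO library was above each Het library, a pattern seen in 17.9% of genes. Scaled by library size alone, the median of all genes moved to 0.19, calls went from 350 higher and 451 lower to 837 higher and 274 lower, and 8 members were called higher.

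Hopx stood at 95.3 and 97.9 CPM in the Het libraries and at 242, 230 and 271 CPM in the KO libraries. The groups were well apart, with a 2.58-fold higher level in KO (log2 1.37, SE 0.14, edgeR adjusted p = 1.13e-06). Akap5 stood at 34.5 and 27.2 CPM in the Het libraries and at 98.9, 68.9 and 114 CPM in the KO libraries (log2 1.61, SE 0.20, edgeR adjusted p = 1.62e-05). Clic5 stood at 35.9 and 33.0 CPM in the Het libraries and at 120, 63.2 and 75.7 CPM in the KO libraries (log2 1.28, SE 0.21, edgeR adjusted p = 0.000457). All 3 remained far below their AT1-like levels. Among the non-haemoglobin UMIs of red blood cell barcodes, Akap5 stood at 77.9 and 92.1 CPM in the Het libraries and at 143, 47.7 and 70.6 CPM in the KO libraries, above both Het AT2-like values. The red blood cell barcodes of KO1 held Hopx at 311 CPM and Clic5 at 187 CPM. For Hopx, Akap5 and Clic5 these KO1 values were above the KO1 AT2-like values, while in KO2 and KO3 the AT2-like values were the higher ones. Counted per barcode, Akap5 was at 0.0211 to 0.0767 UMIs in red blood cells and at 0.395 to 2.32 UMIs in AT2-like cells.

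Krt7 stood at 52.9 and 69.5 CPM in the Het libraries and at 115, 103 and 124 CPM in the KO libraries (log2 0.94, SE 0.16, edgeR adjusted p = 0.000688). In the red blood cell barcodes of KO1, Krt7 stood at 124 CPM, above its KO1 AT2-like value. Ndnf stood at 52.9 and 63.7 CPM in the Het libraries and at 120, 82.4 and 98.1 CPM in the KO libraries (log2 0.79, SE 0.17, edgeR adjusted p = 0.00486). Rtkn2, Pdpn and Aqp5, with the largest changes in AT1-like cells, were not among the 5. Ager stood at 428 and 433 CPM in the Het libraries and at 552, 485 and 563 CPM in the KO libraries and did not pass the threshold (log2 0.31, SE 0.12, edgeR adjusted p = 0.126). Rtkn2, Aqp5 and Pdpn had group means of 7.85, 16.5 and 10.2 CPM in Het and of 11.7, 26.7 and 18.7 CPM in KO. Their adjusted p values by edgeR were 0.497, 0.371 and 0.116, and Gprc5a, at 89.5 against 122 CPM, had 0.0985.

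These AT2-like values moved with the makeup of the class. In cluster 5 alone, which held most of the KO cells of the class, 1 member was called higher (Akap5, log2 0.99), and Ager, Rtkn2 and Aqp5 had log2 values of -0.27, -0.34 and -0.09. With doublets kept and the cells clustered anew, 1 member was called and it was lower (Rtkn2, log2 -0.56). Without Het1, 3 were called higher. At the coarser and finer clusterings (resolutions 0.5 and 2), 2 were called higher at each. Over these settings (cluster 5 alone, doublets kept and both resolutions), the log2 value of Hopx was 0.50 to 0.76 and passed at resolution 2 alone. Akap5 was at 0.40 to 1.05 and did not pass with doublets kept, and Krt7 was at 0.31 to 0.73 and passed at resolution 0.5 alone. Clic5, at 0.36 to 0.69, and Ndnf, at 0.25 to 0.53, passed in none of them. Mixed cells were 2.2% to 9.6% of KO AT2-like cells. They held 18.9% to 26.1% of the class's Ager UMIs and 24.4% to 39.7% of its Hopx UMIs, against 2.63% or less of both in the Het libraries. The highest Ager and Hopx shares were those of KO2. Leaving mixed cells out there took the class from 46 to 45 cells and from 835746 to 708742 UMIs. With mixed cells left out, 4 members were called higher. The summed AT2 markers stood at 146855 and 156177 CPM in the Het libraries and at 91042 to 102804 CPM in the KO libraries, with none of the 11 at 0. The part of these in the result was not tested.

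At 2000 UMIs per cell, an AT2-like cell carried on average 1.06 and 1.15 of the 10 genes in the Het libraries and 1.77, 1.62 and 1.65 in the KO libraries. A UMI of Akap5 was found in 4.39% and 1.71% of Het cells and in 13.5%, 12.8% and 14.3% of KO cells. In monocyte-like cells the share was 0.909% to 2.17%, a range that holds the Het2 value and lies below the KO values. Hopx was found in 11.7% and 17.9% of Het and in 25.0%, 17.9% and 26.4% of KO cells. The groups overlap at 17.9%. Both Het shares and that of KO2 lay within the 9.17% to 18.2% of monocyte-like cells, and those of KO1 and KO3 above it. In neutrophil-like cells Hopx was found in 11.4% to 23.0% of cells. The highest of these shares, 23.0%, was that of KO1, close to the 25.0% of its AT2-like cells. Neutrophil-like cells of KO2 stood at 17.8%, next to the 17.9% of its AT2-like cells, and those of KO3 at 14.2%, below its 26.4%. KO1 lost 15 of its 67 AT2-like cells to the thinning and had a median depth of 5471 UMIs, against 13117 to 15629 in the others.

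The difference between the classes was tested in 1 model over both, with the library as a block. For all 10 genes, the KO minus Het change was lower in AT1-like than in AT2-like cells, against 3.43% of the 10203 genes tested in that direction. The log2 differences ran from -0.90 for Gprc5a (SE 0.15, edgeR adjusted p = 6.86e-06) to -2.24 for Akap5 (SE 0.18, edgeR adjusted p = 2.66e-16). Rtkn2 was at -2.07 (SE 0.35), Pdpn at -1.93 (SE 0.31), Clic5 at -1.77 (SE 0.18), Aqp5 at -1.65 (SE 0.30), Hopx at -1.61 (SE 0.13), Krt7 at -1.49 (SE 0.16), Ndnf at -1.36 (SE 0.16) and Ager at -1.08 (SE 0.11). All 10 were called with any library left out, and 9 with sex as a covariate or by DESeq2. In single clusters 6 were called (clusters 7 and 5) or 4 (clusters 2 and 5). At resolution 2, 6 were called and Pdpn was at -0.27. For Hopx, Rtkn2, Aqp5, Pdpn, Akap5, Clic5 and Krt7, the Het AT2-like levels lay below those of red blood cell barcodes, as given above. The part of free RNA in the difference was not tested. The fit borrowed heavily across genes, with 63.2 prior against 3 residual degrees of freedom, so these p values rest largely on the spread shared by all genes. Scaled by library size alone, calls went from 358 higher and 350 lower to 215 higher and 537 lower, with the median of all genes at -0.15, and all 10 members remained.

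**Figure D4:**
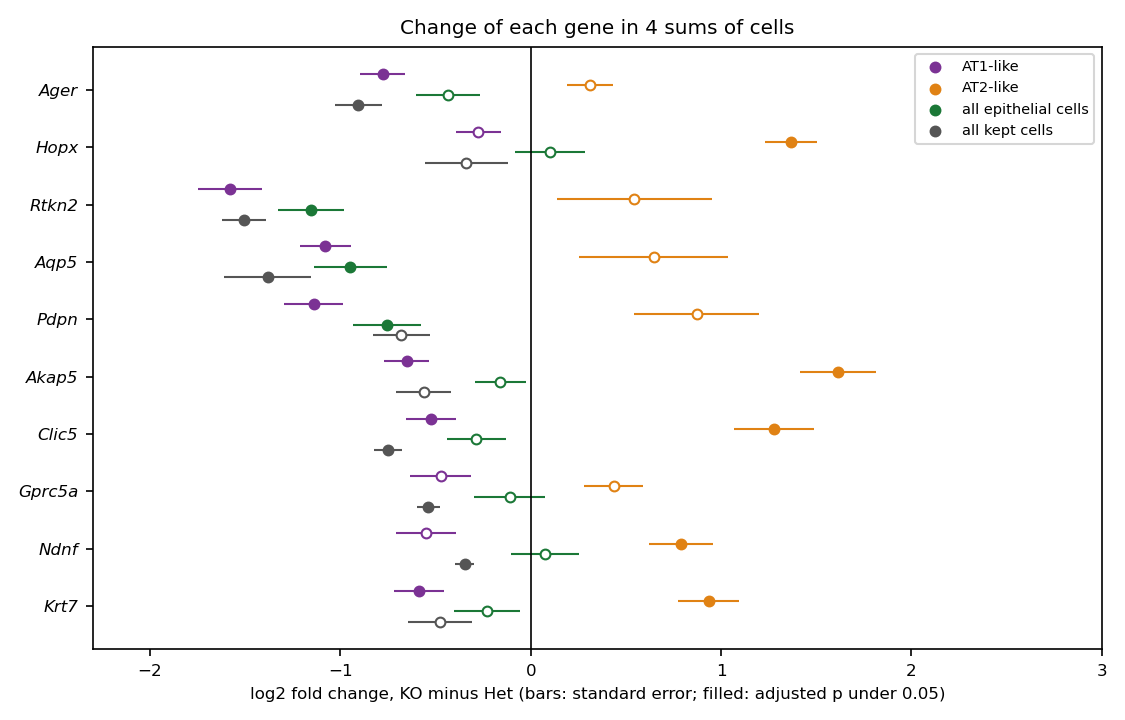
Log2 fold change (KO minus Het) of each gene in the sums of AT1-like, AT2-like, all epithelial and all kept cells; bars are standard errors and filled points passed an adjusted p under 0.05 in edgeR. AT1-like points lie between -1.58 and -0.27 and AT2-like points between 0.31 and 1.61.

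Other genes of the alveolar programme were described from lists, of which 12 AT1 and 11 AT2 genes had also served to name the classes. In AT1-like cells, 12 of the 21 other AT1 genes tested were lower and 1 higher. Col4a3, a collagen IV chain of the basement membrane, fell by 1.35, and Scnn1g, a subunit of the epithelial sodium channel, fell by 1.23 on the log2 scale. The 1 that rose was Igfbp2 (log2 1.18), and the median over the 21 was -0.61, against 0.01 over all genes tested. Of 14 AT2 genes, 8 were higher and none lower in AT1-like cells, led by Sftpa1 (2.99), Sftpb (2.44) and Slc34a2 (1.76), which encode surfactant proteins and a phosphate transporter, with a median over the 14 of 0.84. In AT2-like cells, 12 of the 14 AT2 genes were lower, led by Lyz2 (-2.63), S100g (-2.09) and Sftpd (-1.31), and 14 of 20 other AT1 genes were higher, led by Igfbp2 (3.21), Itgb6 (1.39) and Sema3e (1.35). The medians there were -0.66 for the AT2 genes and 0.98 for the other AT1 genes, against 0.02 over all genes.

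Counts for the other lists stand against 1.86% of genes higher and 2.52% lower in AT1-like sums, 3.69% and 4.75% in AT2-like sums, and 2.85% and 4.99% in epithelial sums. A single call in a list of 14 is near these shares. Of 14 regulators of AT1 fate, Foxp2 alone passed in AT1-like cells (log2 0.87). In AT2-like cells 13 were tested, of which Tead2 (1.61) and Foxp2 (0.94) were higher and Cebpa (-0.66) lower. Of 7 tested YAP and TAZ targets, Ajuba (-1.04) and Ccn2 (-0.92) were lower in AT1-like cells, and Ccn1 (2.36) was higher in AT2-like cells. Genes of the transitional state between AT2 and AT1 cells numbered 12. In AT1-like cells Sfn (0.76) and Cldn4 (0.64) were higher and Krt19 (-0.45) lower, and in AT2-like cells 7 were higher, led by Cldn4 (2.18), Tnfrsf12a (1.15) and Hbegf (1.06), and Ctsh (-0.35), named after its value was seen, was lower. In the epithelial sums, 3 AT2 genes (Lyz2, S100g and Sftpd), 3 other AT1 genes (Cav1, Spock2 and Cav2) and Ajuba were lower, Foxp2 was higher, and no transitional gene passed.

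Summed over all epithelial cells, Rtkn2, Aqp5 and Pdpn were lower in KO and the other 7 did not pass, against 4.99% of the 15031 genes tested that were lower, and the median log2 fold change of the 10 was -0.26. Rtkn2 stood at 89.4 and 100.03 CPM in the Het libraries and at 48.1, 31.8 and 48.4 CPM in the KO libraries (log2 -1.15, SE 0.17, edgeR adjusted p = 0.00750). Aqp5 stood at 182 and 260.1 CPM in the Het libraries and at 102, 98.8 and 142 CPM in the KO libraries (log2 -0.95, SE 0.19, edgeR adjusted p = 0.0232). Pdpn stood at 90.5 and 114 CPM in the Het libraries and at 63.8, 46.6 and 71.5 CPM in the KO libraries (log2 -0.76, SE 0.18, edgeR adjusted p = 0.0401). None of the 3 was called with sex as a covariate, 1 with mixed cells left out, and 1 without Het2, without KO1 or without KO2. Mixed cells held 41.2% to 61.9% of each member's epithelial UMIs, over all members and libraries.

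In the sums of all kept cells, 6 members were lower, against 2.83% of the 17727 genes tested. These were Ager, Rtkn2, Aqp5, Clic5, Gprc5a and Ndnf, with log2 fold changes between -1.51 (Rtkn2) and -0.35 (Ndnf). Ager stood at 634 and 673 CPM in the Het libraries and at 309, 330 and 408 CPM in the KO libraries (edgeR adjusted p = 0.0256). In such sums, fewer cells of a type and less RNA per cell cannot be told apart. No member was called with sex as a covariate, without Het1 or without Het2, and 3 were called with mixed cells left out, without KO2 or without KO3. Epithelial cells were 19.9% and 16.9% of kept cells in the Het libraries and 11.9%, 11.8% and 11.5% in the KO libraries (exact permutation test, two-sided, p = 0.1, the smallest possible with 2 against 3). The AT1-like share of epithelial cells was 24.0% ± 4.0 in Het (SD, n = 2) and 22.8% ± 4.03 in KO (n = 3), with an exact permutation p of 0.7. That share depended on the cells and clusters used. With doublets kept it was 14.6% in Het and 5.17% in KO (exact permutation p = 0.1, the smallest possible), and at resolution 2 it was 20.4% and 11.0% (exact permutation p = 0.2).

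The AT1-like class held only part of the transcripts. It held 28.4% and 30.2% of all Ager UMIs in the Het libraries and 19.2%, 22.8% and 28.2% in the KO libraries. Epithelial clusters without a name, among them deep clusters led by endothelial and pericyte genes, held another 43.1% and 46.0% in the Het and 65.5%, 49.1% and 47.6% in the KO libraries. These clusters were 17.8% and 24.3% of epithelial cells in the Het and 27.0% to 27.7% in the KO libraries. A further cluster of all cells, 21, which got no class because 99.5% of its cells were mixed, lay outside the epithelium and held 60 cells in each Het library and 29, 26 and 37 in the KO libraries. It held 16.1% and 14.4% of Ager UMIs in the Het libraries and 0.59% to 4.71% in the KO libraries, and for all 10 genes its share was lower in each KO library than in each Het library. Its part in the whole-library fall was not tested. In unnamed cluster 9, led by AT2 genes with Gem and Areg, Ager averaged 2954 CPM in the Het libraries and 1845 CPM in the KO libraries with at least 20 cells.

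In club-like and ciliated-like airway cells no member was called by edgeR or by DESeq2, against 1.72% of 6239 and 0.554% of 12285 genes. Rtkn2 and Aqp5 were too low to be tested in club-like cells. At an unadjusted p under 0.05, 9.60% of genes passed in club-like and 8.90% in ciliated-like cells. Ager in club-like cells ranged from 195 to 286 CPM in the Het libraries and from 86.9 to 281 CPM in the KO libraries, with no order between the groups. All of these values but that of KO1 lay below the level in red blood cell barcodes of the same library.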

How the data were processed

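The files were deposited as matrices of UMI counts, which the submitters' processing notes tie to Cell Ranger 4.0.0 and the mm10 build. Cells entered with 500 genes or more and mitochondrial UMIs of 15% or less, without 78 to 186 barcodes per library that resembled simulated doublets. Haemoglobin was not a filter, and a cluster of the erythroid lineage was among the kept cells. The red blood cell barcodes used to gauge free RNA had haemoglobin above 50% of UMIs and fewer than 500 genes. Cells were clustered with scanpy 1.11.5 (Leiden, resolution 1), with the 10 genes left out, and named from marker lists. The naming rule was revised after the clusters were seen, since the first version left the AT1 cluster unnamed, and a rule was added that leaves non-epithelial clusters with over 50% mixed cells without a class. UMIs were summed per library and class and tested with edgeR 4.0.16 (R 4.3.3; TMM, filterByExpr, quasi-likelihood, Benjamini-Hochberg, threshold 0.05). DESeq2 1.42.0, other scaling, filters, clusterings and covariates were alternatives. On simulated data with log2 changes of 1, the tests recovered 72.8% in AT1-like sums, 67.0% in AT2-like sums and 35.3% for the difference between the classes. All 10 members were named, and of each list the 3 called genes with the largest change. The 10 genes and the lists were chosen with earlier results of these data known.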

Additional observations from a re-analysis of the deposited data

Results flagged for a closer look

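The KO minus Het change differed between AT1-like and AT2-like cells for all 10 genes by the test of that difference in edgeR. On the log2 scale, the change in AT1-like cells less that in AT2-like cells was -1.08 for Ager, -1.61 for Hopx, -2.07 for Rtkn2, -1.65 for Aqp5 and -1.93 for Pdpn. It was -2.24 for Akap5, -1.77 for Clic5, -0.90 for Gprc5a, -1.36 for Ndnf and -1.49 for Krt7. In clusters 2 and 5 alone the difference passed for 4 of the 10, and at resolution 2 for 6, with Pdpn at -0.27.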

How the results depend on the processing

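Member directions in AT1-like cells held under every alternative run, and those in AT2-like cells did not. With sex as a covariate, the genes past the threshold numbered 51 in AT1-like (3 members), 260 in AT2-like, 716 in epithelial (0 members, Akap5 at 0.013) and 1 in whole-library sums (0 members), and 214 for the difference between the classes. DESeq2 called 182 genes in AT1-like, 347 in AT2-like, 36 in club-like and 2125 in whole-library sums, and 246 for the difference between the classes. Library size alone called 8 members in AT2-like sums.

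Cluster 2 alone gave 73 genes and 4 members in AT1-like sums, and cluster 7 alone 247 genes. Cluster 5 alone gave 197 genes and 1 member in AT2-like sums, with Ager at -0.27, Rtkn2 at -0.34 and Aqp5 at -0.087. For the difference between the classes, clusters 2 and 5 gave 100 genes and 4 members, and clusters 7 and 5 gave 246 genes and 6 members. These 5 alternatives were chosen after seeing the data. Resolution 0.5 gave 625 genes in AT1-like and 382 in AT2-like sums (2 members) and 471 for the difference. Resolution 2 gave 161 in AT1-like (4 members), 136 in AT2-like (2 members, Pdpn at -0.44) and 84 for the difference (6 members). It moved the KO minus Het share of epithelial cells to -9.43 points for AT1-like and -9.63 points for AT2-like cells.

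With doublets kept, 1 member was called in AT2-like sums (Ager -0.011, Rtkn2 -0.56, Aqp5 -0.23, Pdpn -0.30), 2 in club-like and 1 in ciliated-like sums. Epithelial Hopx and Ndnf were then at -0.042 and -0.035, and the AT1-like share at -9.39 points. Stricter cell filters put the AT2-like share at -10.2 points. Without mixed cells, 359 genes (3 members) were called in whole-library, 215 (1 member) in epithelial, 65 in club-like and 6 in ciliated-like sums, with epithelial Hopx at -0.0031 and Ndnf at -0.083. Without AT1-like cells, epithelial Akap5 was at 0.087 and Gprc5a at 0.041. Without a filter on low counts, 2107 genes were called in epithelial, 253 in club-like and 398 in ciliated-like sums (1 member). Without thinning, the mean share of AT1-like cells with a UMI was 98.7% for Hopx, 64.9% for Rtkn2, 80.7% for Aqp5, 73.7% for Pdpn, 93.1% for Akap5, 96.7% for Clic5, 95.5% for Gprc5a, 90.8% for Ndnf and 94.6% for Krt7.

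Correlations of deviations between libraries with the same replicate number ran from -0.13 to 0.17 over 2 pairs. So few pairs cannot tell whether replicate numbers pair the libraries. With the replicate block, 6 genes and 0 members were called in whole-library sums, 8 members in AT2-like sums, 201 genes in club-like and 230 in ciliated-like sums.

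Leaving out 1 library at a time gave 0 to 820 genes (0 to 7 members) in whole-library, 314 to 1017 (1 to 3) in epithelial, 101 to 630 (4 to 9) in AT1-like, 301 to 839 (3 to 5) in AT2-like and 11 to 176 genes in ciliated-like sums, and 353 to 692 for the difference. In epithelial sums, log2 values then ran from -0.17 to 0.44 for Hopx, -0.32 to 0.021 for Akap5, -0.29 to 0.053 for Gprc5a, -0.11 to 0.22 for Ndnf and -0.49 to 0.086 for Krt7. The cause of these shifts was not tested. AT1-like sums and the difference with doublets kept, and club-like sums under stricter filters, were not run, since a library held too few cells.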
